A study of Apis mellifera with 12 samples.

Results

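Glutathione transferases and thioredoxin reductase are enzymes that deal with reactive chemicals and oxidized molecules in the cell. The genes described here are GstD1, GstS1, GstS4 and Trxr-1, chosen by name as redox enzymes of the antenna; they are 4 of 12319 genes in the count table, and all 4 were among the 11271 genes tested. The tissue was the antenna of the honey bee, Apis mellifera, and its RNA was sequenced in 12 libraries of workers, 3 each from defenders, foragers (workers that collect food outside), nurses (workers that tend brood) and newly emerged workers. The sources used here state neither strain, colony and age nor how many bees were pooled or how defenders were recognised, so task and age cannot be told apart. The series title names the division of labor among workers as the question.

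Glutathione transferases join the small peptide glutathione to reactive compounds, which makes these easier to remove, and some of them also reduce lipid peroxides. In insects the delta class, to which GstD1 belongs, is best known from insecticide resistance. The sigma class, to which GstS1 and GstS4 belong, is known in Drosophila for acting on aldehydes from lipid peroxidation. In antennae of moths and flies, glutathione transferases have also been linked to the breakdown of odorants and of toxic volatiles. Thioredoxin reductase, encoded by Trxr-1, keeps thioredoxin reduced at the expense of NADPH. In Drosophila, which lacks glutathione reductase, it maintains the glutathione pool as well through thioredoxin.

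Depth ran between 66708813 and 119703929 counts a library, of which the top 10 genes held 8.78% to 13.7%. Levels are in CPM, each gene's counts relative to the library total, scaled to a common library size with TMM factors, and errors are the SD between the libraries of 1 group (n = 3). Tests are edgeR's quasi-likelihood test over all 11271 genes with Benjamini-Hochberg (BH) adjustment, called at an adjusted p under 0.05, and SE is the standard error of a log2 fold change. The labels do not say whether the libraries of a group came from separate bees or colonies, so the p-values measure only the spread between these libraries. Libraries of the same group all differed by more than counting noise (chi-square from 53.0 to 336 per gene). The antennal markers Or2, Or11, Obp1, Obp2 and CSP1 were all present, with a summed level of 40080.1 to 45681 CPM in defenders, 41001 to 57344 in foragers, 42859 to 46888 in nurses and 24070.5 to 29472 in newly emerged workers. Obp1, Obp2 and CSP1 made up most of that sum, and the odorant receptor genes Or2 and Or11 differed in direction. Or2 was at 325 to 388 CPM in defenders, 152 to 246 in foragers and 101 to 238 in nurses. In newly emerged workers Or2 was at 308 to 340 CPM. Or11 was at 39.3 to 41.4 CPM in defenders, 42.1 to 54.0 in foragers and 43.4 to 46.2 in nurses. In newly emerged workers Or11 was at 23.7 to 28.8 CPM. In bulk antennae, fewer cells of a type and less RNA per cell cannot be told apart.

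The 4 genes did not move together. Relative to newly emerged workers, GstS1 rose in all 3 other groups, GstS4 fell in all 3, Trxr-1 fell in nurses and defenders, and GstD1 fell in defenders. Tested for a difference anywhere between the 4 groups, the call was made for GstS4 (edgeR adjusted p = 5.8e-06), Trxr-1 (adjusted p = 0.00571) and GstS1 (adjusted p = 0.0163) and not for GstD1 (adjusted p = 0.12). Over all tested genes, 48.5% passed that test. Libraries of the compared groups did not overlap for 54.8%, 56.3% and 52.3% of all tested genes when defenders, foragers and nurses were set against newly emerged workers, for 38% (defenders) and 18.1% (foragers) against nurses, and for 32% of genes when defenders were set against foragers.

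**Figure D1:**
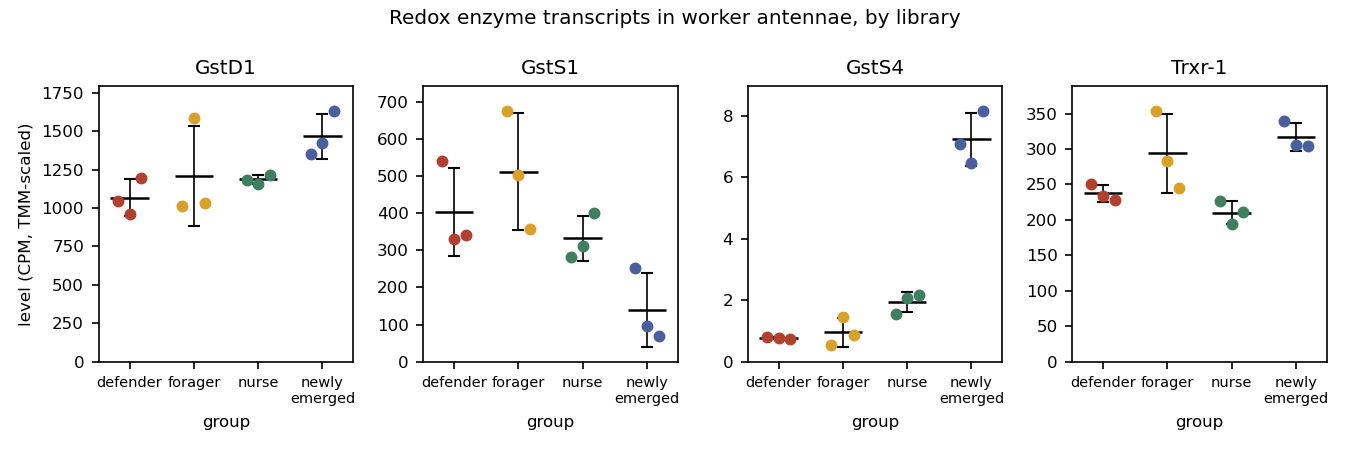
Level of each gene in CPM (vertical axis, from 0) in defenders, foragers, nurses and newly emerged workers. Points are libraries, lines the mean of 3 and bars the SD; GstS4 lies between 6.45 and 8.15 CPM in newly emerged workers and at or below 2.17 CPM in every other library, while GstS1 is lowest in newly emerged workers with 1 library at 253 CPM.

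GstS4, a sigma-class transferase, had larger fold changes than the other 3 genes in each comparison against newly emerged workers or nurses. It was at 0.811, 0.778 and 0.750 CPM in the 3 defender libraries, at 0.528, 1.46 and 0.882 in foragers, at 1.56, 2.06 and 2.17 in nurses, and at 7.08, 6.45 and 8.15 in newly emerged workers. Defenders, foragers and nurses each lay wholly below newly emerged workers, both defenders and foragers lay below all nurse libraries, and defenders and foragers overlapped. These levels rest on 53 to 208 counts per library in these 3 groups against 436 to 761 in newly emerged workers. The gene is therefore measured with few counts even in libraries of this depth.

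Against newly emerged workers, GstS4 was 9.27-fold lower in defenders (log2 fold change -3.21, SE 0.30, edgeR adjusted p = 5.91e-06). It was 7.54-fold lower in foragers (log2 fold change -2.91, SE 0.29, adjusted p = 1.03e-05) and 3.75-fold lower in nurses (log2 fold change -1.91, SE 0.28, adjusted p = 0.00029). A larger change, in either direction, was found in 1.44%, 1.89% and 3.23% of tested genes in these 3 comparisons. GstS4 also fell in defenders relative to nurses (0.78 ± 0.031 CPM in defenders and 1.93 ± 0.33 in nurses, log2 fold change -1.31, SE 0.29, edgeR adjusted p = 0.0268). That call was lost on leaving out nurse library 2 or 3 or any 1 of the defender libraries (edgeR adjusted p = 0.0641 to 0.0964). In foragers it averaged 0.96 ± 0.47 CPM, and the difference from nurses did not pass (log2 fold change -1.01, adjusted p = 0.0776, and -1.46 with adjusted p = 0.0111 without forager library 2). The order of the group levels was thus newly emerged workers, then nurses, then foragers and defenders. Of neighbours in that order, foragers and nurses did not overlap but passed only with DESeq2 (adjusted p = 0.00997) and without forager library 2, and defenders and foragers did not pass (log2 fold change -0.30, 95% interval -0.94 to 0.34, and 0.16 without forager library 2).

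GstS1, the other sigma-class gene, ran the opposite way. Its SD within groups on the log2 scale was 0.59, against 0.39 for GstS4. In foragers, though, GstS4 had the larger spread, with an SD of 49.2% of the mean against 31.0% for GstS1. It was at 542, 329 and 340 CPM in defenders, at 676, 504 and 358 in foragers, at 283, 313 and 400.2 in nurses, and at 253, 96.7 and 68.9 in newly emerged workers. All libraries of the 3 other groups lay above those of newly emerged workers, but nurse library 1 and newly emerged library 1 were close to each other. Among defenders, foragers and nurses the libraries overlapped in every pair of groups.

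Relative to newly emerged workers, GstS1 rose 2.89-fold in defenders (log2 fold change 1.53, SE 0.41, edgeR adjusted p = 0.0127), 3.67-fold in foragers (log2 fold change 1.88, SE 0.42, adjusted p = 0.00313) and 2.38-fold in nurses (log2 fold change 1.25, SE 0.41, adjusted p = 0.0303). Newly emerged library 1 decided the size of these changes. Without it the log2 fold changes were 2.28 in defenders, 2.65 in foragers and 2.01 in nurses. The call in nurses was lost when either library 2 or library 3 was left out, of newly emerged workers or of nurses, and in a fit of the 2 groups alone (edgeR adjusted p = 0.0539 to 0.113). The call in defenders was lost without newly emerged library 2 or defender library 1 (adjusted p = 0.0575 and 0.0545), and that in foragers held under all 20 alternatives. Differences among defenders, foragers and nurses did not pass. The log2 fold change of defenders against foragers was -0.34 (95% interval -1.23 to 0.54), that of defenders against nurses 0.28 (-0.60 to 1.16) and that of foragers against nurses 0.63 (-0.26 to 1.51), so differences above 2-fold lie within each interval. 

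The spread of GstS1 within groups had an SD of 0.59 on the log2 scale, against a median of 0.18 over all tested genes, and 4.34% of genes had a larger one. In newly emerged library 1 it was 2.61 times as high as in the next library of the group. Of 9757 genes with a mean of at least 1 CPM, 15, GstS1 among them, stood at least as far above in that library. In defender library 1, GstS1 was 1.59 times as high as in the next. There 75 of the 9757 genes, again with GstS1 among them, stood at least as far above. The within-group SD of GstS4 was 0.39, that of GstD1 0.21 and that of Trxr-1 0.16.

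Trxr-1, thioredoxin reductase, was lowest in nurses. It was at 251, 234 and 228 CPM in defenders, at 353, 283 and 245 in foragers, at 226, 194 and 211 in nurses, and at 339, 306 and 304 in newly emerged workers. Defenders and nurses lay wholly below newly emerged workers, and foragers overlapped with these. All foragers and all defenders lay above all nurses, defenders by little.

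Trxr-1 fell 1.5-fold in nurses relative to newly emerged workers (log2 fold change -0.59, SE 0.12, edgeR adjusted p = 0.00273), a call that held under all 20 alternatives. It also fell in defenders (log2 fold change -0.41, SE 0.12, adjusted p = 0.0195), where the call was lost without newly emerged library 1 or defender library 2 or 3 (adjusted p = 0.0632 to 0.078). The difference of foragers from newly emerged workers did not pass (294 ± 55.2 CPM in foragers and 317 ± 19.8 in newly emerged workers; on the log2 scale -0.11, 95% interval -0.37 to 0.16). The sign of that value turned to 0.038 with upper-quartile factors and to 0.0070 without forager library 3. Relative to nurses, Trxr-1 rose 1.4-fold in foragers (log2 fold change 0.48, SE 0.12), at an edgeR adjusted p of 0.0488, just under the threshold. That call was lost in 14 of 20 alternatives, 11 of which leave out 1 library, and the log2 fold change ranged from 0.33 to 0.60. Defenders against nurses gave 0.17 (95% interval -0.090 to 0.44), and defenders against foragers -0.31 (95% interval -0.57 to -0.042) at an adjusted p of 0.156; the intervals are not adjusted.

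GstD1, the delta-class transferase, was at 1048, 961 and 1195 CPM in defenders, at 1013, 1584 and 1033 in foragers, at 1186, 1159 and 1214 in nurses, and at 1349.9, 1422 and 1631 in newly emerged workers. Defenders and nurses lay below newly emerged workers, while forager library 2 lay within the range of newly emerged workers and apart from the other 2 forager libraries. The gene took 0.098% to 0.165% of all counts of a library.

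Of the 6 comparisons, GstD1 passed in defenders against newly emerged workers (log2 fold change -0.46, SE 0.16, edgeR adjusted p = 0.0414), and 9 of 20 alternatives ended that call (adjusted p = 0.0517 to 0.136). Nurses against newly emerged workers gave -0.31 (95% interval -0.65 to 0.039), with adjusted p = 0.144. Foragers against newly emerged workers gave -0.28 (95% interval -0.62 to 0.067), with adjusted p = 0.167. Without forager library 2, both passed in edgeR, with log2 fold changes of -0.52 in foragers (adjusted p = 0.00276) and -0.31 in nurses (adjusted p = 0.0229). Nurses also passed in a fit of the 2 groups alone (adjusted p = 0.0381). The difference of foragers from nurses was 0.028, and -0.21 without forager library 2, and neither passed. The levels of defenders, foragers and nurses were not separated by any test.

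**Figure D2:**
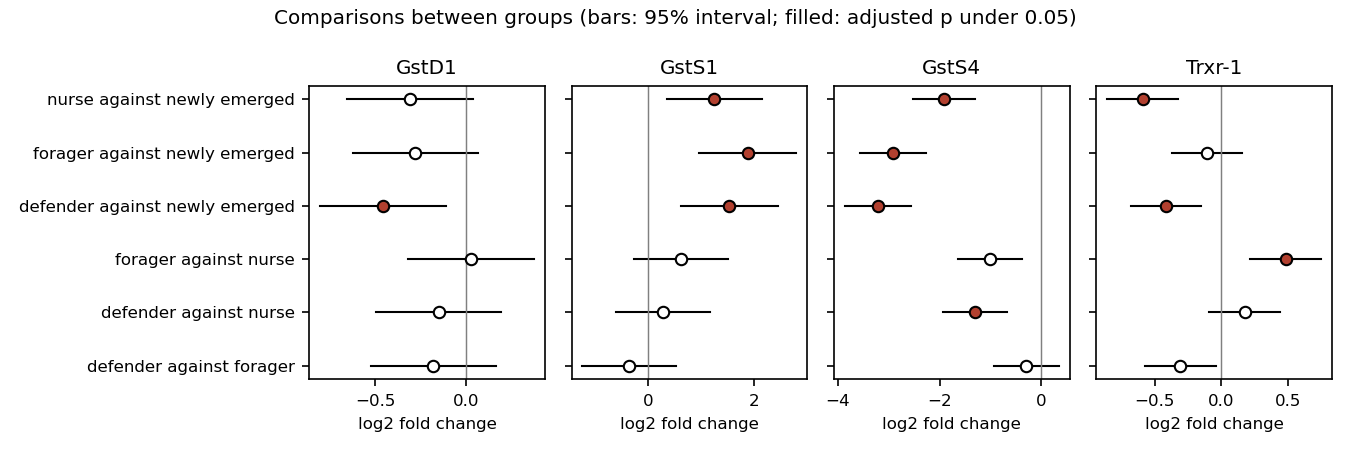
Log2 fold change (horizontal axis, scale differs between panels) of each gene in the 6 comparisons, first group over second. Bars are 95% intervals and filled points passed at an adjusted p under 0.05; GstS4 was -3.21 in defenders, -2.91 in foragers and -1.91 in nurses against newly emerged workers, and no filled point stands in the comparison of defenders with foragers.

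Counted by comparison, in defenders against newly emerged workers 1 of the 4 genes rose and 3 fell, where 34.4% of all tested genes passed (17.7% rose and 16.7% fell). In foragers against newly emerged workers 1 rose and 1 fell, where 47.9% of all genes passed (23.6% rose and 24.4% fell). In nurses against newly emerged workers 1 rose and 2 fell, where 39.6% of all genes passed (18.9% rose and 20.7% fell). With upper-quartile factors, calls higher made up 65.2% of all calls in foragers and 63.9% in nurses against newly emerged workers, in place of 49.1% and 47.7%. These 3 comparisons share the newly emerged libraries. In foragers against nurses 1 rose, where 4.01% of all genes passed (1.91% rose and 2.1% fell). In defenders against nurses 1 fell, where 7.74% of all genes passed (4.63% rose and 3.11% fell). There 59.9% of all calls were higher in defenders, against 41.1% with upper-quartile factors and also in a fit of the 2 groups alone, so that the larger share turned. In defenders against foragers none passed in edgeR, and none of the 11271 genes did (0%). At an unadjusted p under 0.05, 2705 genes differed there, Trxr-1 among them; DESeq2 called 1306 genes, none of them one of the 4. The median log2 fold change of the 4 genes was -0.44 in defenders, -0.19 in foragers and -0.45 in nurses against newly emerged workers, beside medians of -0.0013, 0.0091 and 0.018 over all tested genes. In defenders the 4 ran from -3.21 (GstS4) to 1.53 (GstS1), so these medians do not describe a shared fall.

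The other named redox genes of the table set these values in context. A list of 45 symbols for transferases, thioredoxins, peroxiredoxins, glutathione peroxidases, superoxide dismutases, catalase, glutathione synthesis and methionine sulfoxide reductases found 7 further genes, all tested. Genes that the table names by LOC number alone were out of reach of this list, so other glutathione transferases and the thioredoxins of the bee are not covered. Relative to newly emerged workers, the same counts held in defenders, foragers and nurses: 4 of 7 rose, 2 fell and 1 did not pass, beside the shares of all genes given above. The median log2 fold change of the 7 was 0.87 in defenders, 1.08 in foragers and 0.66 in nurses. In each of the 3 comparisons those that rose were Cat, Gtpx1, Tpx-4 and MsrA, and those that fell were Sod2 and Tpx-3.

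Cat, the catalase that splits hydrogen peroxide, averaged 739 ± 29.7 CPM in defenders, 817 ± 21.8 in foragers, 635 ± 71.8 in nurses and 386 ± 19.0 in newly emerged workers. Gtpx1, a glutathione peroxidase homolog whose Drosophila counterpart is reduced by thioredoxin, averaged 597 ± 67.3 CPM in defenders, 727 ± 10.2 in foragers, 543 ± 49.8 in nurses and 315 ± 24.9 in newly emerged workers. These were rises of 0.72 to 1.21 on the log2 scale for Cat and Gtpx1 in the 3 groups (edgeR adjusted p = 2.68e-06 to 0.000133). Tpx-4, a thioredoxin peroxidase, rose by 1.16 in defenders, 1.40 in foragers and 1.30 in nurses on the log2 scale against newly emerged workers (edgeR adjusted p = 1.54e-05 to 7.21e-05). MsrA, which repairs oxidized methionine in proteins, averaged 34.3 ± 2.27 CPM in defenders, 40.9 ± 3.45 in foragers, 29.5 ± 5.03 in nurses and 18.7 ± 0.42 in newly emerged workers.

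On the falling side, Sod2, the mitochondrial superoxide dismutase, averaged 58.2 ± 2.28 CPM in defenders, 67.6 ± 4.98 in foragers, 72.2 ± 6.14 in nurses and 96.0 ± 6.89 in newly emerged workers. Its log2 fold changes against newly emerged workers, in the order of those groups, were -0.72, -0.51 and -0.41 (edgeR adjusted p = 6.15e-05 to 0.00371). Tpx-3, another thioredoxin peroxidase, had log2 fold changes of -0.58 in defenders, -0.42 in foragers and -0.31 in nurses against newly emerged workers (edgeR adjusted p = 0.000904 to 0.0311); with upper-quartile factors, the last 2 were -0.27 and -0.19 and did not pass. The Tpx-3 call in nurses was also lost in a fit of the 2 groups alone (edgeR adjusted p = 0.0759). Leaving out newly emerged library 3 or nurse library 1 or 2 ended it too (edgeR adjusted p = 0.0608 to 0.12). Sod1, the cytosolic superoxide dismutase, was at 296 ± 6.77 CPM in defenders, 348 ± 36.8 in foragers, 344 ± 17.7 in nurses and 317 ± 48.2 in newly emerged workers and passed in no comparison. Between foragers and nurses, Cat, Gtpx1 and MsrA were called higher in foragers, at log2 fold changes of 0.36 to 0.47 and edgeR adjusted p = 0.0425 to 0.0482. With any 1 library left out, 0 to 2 of the 7 genes were called there. None of the 7 passed in defenders against nurses, or in defenders against foragers, in edgeR. At an unadjusted p under 0.05 there were 3 and 2 of them, beside 3102 and 2705 of all 11271 tested genes. These counts therefore do not set the 7 apart from other genes. DESeq2 called 1 of the 7 in each comparison, beside 1844 and 1306 of all genes.

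**Figure D3:**
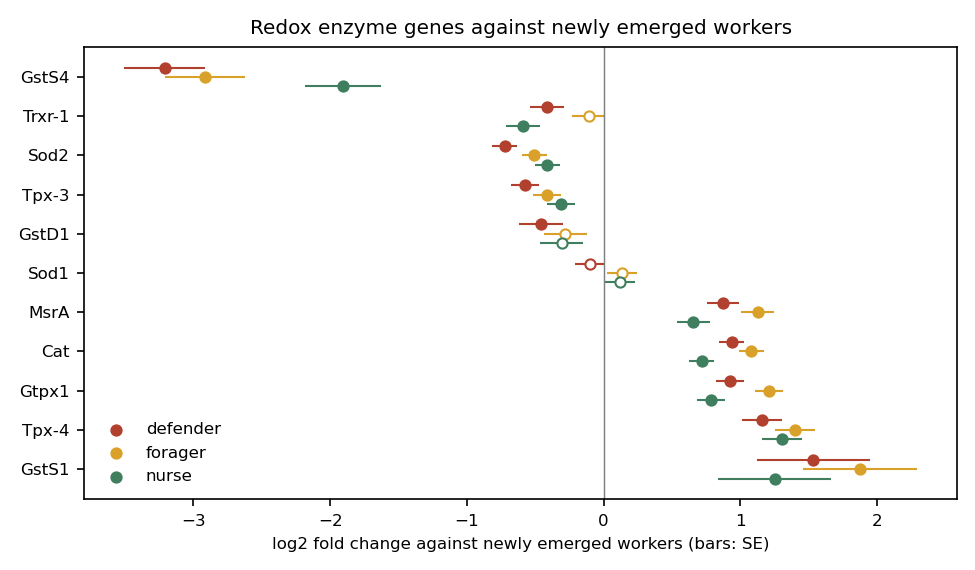
Log2 fold change (horizontal axis) of the 4 genes and the 7 other named redox genes in defenders, foragers and nurses, each against newly emerged workers. Bars are standard errors and filled points passed at an adjusted p under 0.05; Cat, Gtpx1, MsrA, Tpx-4 and GstS1 lie to the right, and GstS4, Trxr-1, Sod2 and Tpx-3 to the left, the value of Trxr-1 in foragers being -0.11.

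Ratios of counts within a library do not depend on how libraries are scaled. They are not divided by transcript length, so only their differences between groups can be read. The log2 ratio of Trxr-1 to Cat was -1.74 to -1.50 in defenders, -1.70 to -1.24 in foragers, -1.64 to -1.52 in nurses and -0.42 to -0.15 in newly emerged workers. The newly emerged libraries lay apart from all others, and the other 3 groups overlapped. Cat itself was higher in those groups than in newly emerged workers, by 0.72 to 1.08 on the log2 scale. Over GstD1 in place of Cat, Trxr-1 did not set newly emerged workers apart. That ratio was -2.39 to -2.04 in defenders, -2.48 to -1.52 in foragers, -2.58 to -2.39 in nurses and -2.42 to -1.99 in newly emerged workers. GstS4 to GstD1 was -10.6 to -10.3 in defenders, -10.9 to -10.1 in foragers, -9.57 to -9.13 in nurses and -7.78 to -7.57 in newly emerged workers, so that nurses lay between newly emerged workers and the overlapping pair of defenders and foragers. GstS1 to GstD1 was -1.81 to -0.95 in defenders, -1.65 to -0.58 in foragers, -2.07 to -1.60 in nurses and -4.57 to -2.42 in newly emerged workers, again with newly emerged workers apart.

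**Figure D4:**
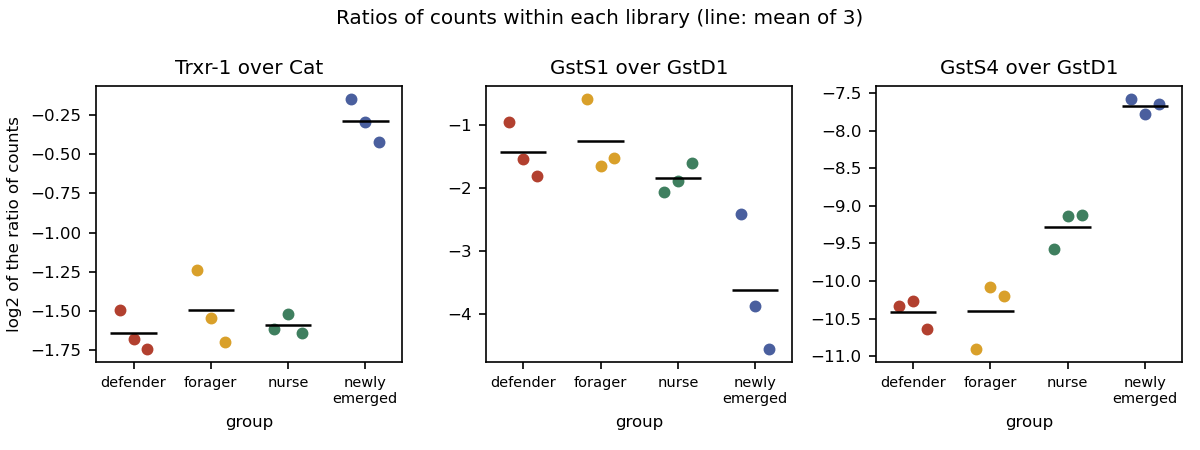
Log2 ratio of the counts of 2 genes in each library (vertical axis, scale differs between panels), by group. Points are libraries and lines the mean of 3; in all 3 panels the newly emerged libraries lie apart from the others, for Trxr-1 over Cat at -0.42 to -0.15 against -1.24 or less elsewhere. Trxr-1 over GstD1, where newly emerged libraries overlapped with the others, is not drawn.

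The named genes whose levels over the 12 libraries were most like each of the 4 were sought among 337 genes with a symbol, by the root mean square difference between log2 CPM profiles, each centred on its own mean. For GstS4, whose own profile had a root mean square of 1.30, these were the cuticle genes Cpap3-b (0.38) and CPR11 (0.46) and the chemosensory protein gene CSP2 (0.43). For GstS1, with 0.92 of its own, they were the odorant receptor genes Or26 (0.43) and Or53 (0.50) and Crzr (0.47), the corazonin receptor gene. For Trxr-1, with 0.27, they were uzip (0.18), CytC (0.19), which encodes cytochrome c, and Calpb (0.20). For GstD1, with 0.24, they were Argk (0.146), the arginine kinase gene, Tpx-3 (0.151) and Tspan6 (0.151).

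After the values had been seen, the same was done on deviations from the group means, which leaves only differences between libraries of a group. The gene then most like GstD1 was Obp1, an odorant binding protein gene, at 0.053 where GstD1 alone had 0.17; Obp2 came next but one, at 0.092, after Tpx-4 at 0.089. Obp1 was at 17375, 23805 and 17086 CPM in the 3 forager libraries, and library 2 was also the highest for GstD1. Among newly emerged workers the order of the libraries was the same for both genes, with 9042, 9710.4 and 10976 CPM for Obp1. It was also the same among defenders, but among nurses and among foragers it differed below the highest library. Obp1 was picked on these same deviations, so some likeness is built in. For Trxr-1 the most like gene was uzip, at 0.061 against 0.13 for Trxr-1 alone. For GstS1 no gene came close, the nearest being CPR3 at 0.34 against 0.48 for GstS1 alone. Genes compared within a library share its depth and scaling, and these values are descriptions.

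**Figure D5:**
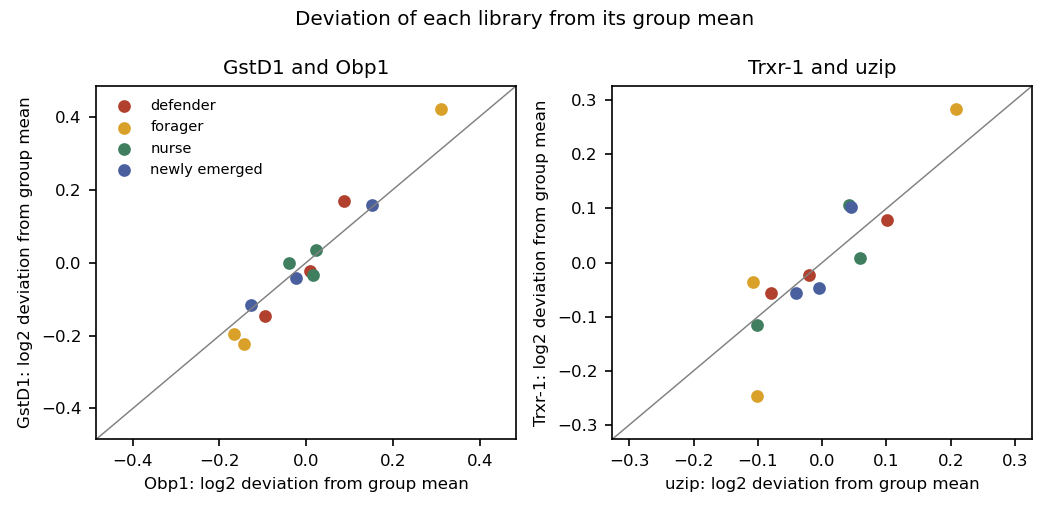
Deviation of each library from its group mean on the log2 scale, for GstD1 (vertical) against Obp1 (horizontal) and for Trxr-1 (vertical) against uzip (horizontal), coloured by group, with the line of equality. The point farthest to the upper right is forager library 2 for GstD1 (0.42, Obp1 0.31) and forager library 1 for Trxr-1 (0.28, uzip 0.21).

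Markers of other cell types moved between the groups as well. For muscle, 6 of 9 listed genes were in the table, and their summed level was 874 to 1169 CPM in defenders, 832 to 1032 in foragers, 936 to 1448 in nurses and 1994 to 2266 in newly emerged workers. For head glands all 10 were present, at 719.7 to 890.5 CPM in defenders, 833 to 1005 in foragers, 684 to 2826 in nurses and 115 to 125 in newly emerged workers. Its members moved apart, 1 being called higher and 5 lower in foragers against nurses. Mrjp1 was at 0.860 to 41.7 CPM in foragers and 132 to 1236 in nurses, and Hbg3 at 345 to 420 in foragers and 97.7 to 130 in nurses. The hemocyte gene PPO (1 of 2 listed) was at 10.4 to 12.3 CPM in defenders, 9.25 to 9.99 in foragers, 26.4 to 48.8 in nurses and 21.8 to 24.3 in newly emerged workers. Fat body genes (5 of 5) summed to 18.3 to 42.9 CPM in defenders, 12.2 to 18.9 in foragers, 42.7 to 229 in nurses and 35.2 to 49.5 in newly emerged workers. Neuronal genes (4 of 7) summed to 2848 to 3206 CPM in defenders, 2898 to 3361 in foragers, 3315 to 3891 in nurses and 3000.4 to 3175 in newly emerged workers, and the glial gene Eaat-2 (1 of 4) was at 16.3 to 27.7 CPM over all libraries. In defenders against newly emerged workers, 1 neuronal gene was called higher and 1 lower. Para was at 1209 to 1279 CPM in defenders and 1505 to 1636 in newly emerged workers. For Syx1A these ranges were 1144 to 1395 and 988 to 1027 CPM. The part of all these markers in the results above was not tested.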

How the data were processed

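The main file deposited by the authors holds raw counts for each gene. Inclusion levels of splice events were deposited as a fraction, in 5 tables. For the aligner, counter, build, annotation and strand use, the sources used here name nothing; the protocol labels describe a chromatin assay on human cells and were not relied on. Groups and numbers came from sample titles; some titles carry a second number that disagrees with the first (in nurses and foragers), and the first was used, also for the replicate block. Columns were joined by group initials and number.

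After filterByExpr, 11271 genes were fitted with edgeR 4.0.16 (R 4.3.3; TMM, glmQLFit with robust = TRUE, two-sided glmQLFTest) in 1 model of 4 group means over 12 libraries, with 8 residual degrees of freedom. The fit was also run on simulated data in which a small share of genes changed, in nurses only. That run does not cover comparisons where a large share of genes moves. SE is the absolute log2 fold change over the square root of F; log2 CPM used a prior count of 2. Alternatives included DESeq2 1.42.0. Splice tables were searched for the 4 genes. The RefSeq gene list of Amel_HAv3.1 matched 12167 of 12319 names and served only for synonyms (1 match, Gtpx1) and neighbours. Reads shared by close paralogs could be split by the counting, which is not described.

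The members, lists and tests were chosen with earlier results of these data known. Named genes were the 4 members, up to 8 redox genes with the smallest p in the test of any difference, and the most abundant gene of each redox class, which together cover all 7 others, and the 3 most like genes per member.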

Additional observations from a re-analysis of the deposited data

How the results depend on the processing

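Each of the 4 genes was tried under 20 alternatives in 6 comparisons, 480 values in all: 431 kept their direction and side of the threshold, 38 lost a call, 5 gained one and 6 turned their sign. Those that turned were uncalled: Trxr-1 in foragers against newly emerged workers (0.038 with upper-quartile factors, and -0.26 to 0.0070 with a library left out, positive without forager library 3), GstS1 in defenders against nurses (-0.00069 to 0.44, negative without defender library 1), and, without forager library 2, GstD1 in foragers against nurses (-0.21 to 0.14) and in defenders against foragers (-0.29 to 0.063) and GstS4 in defenders against foragers (-0.59 to 0.16). The cause was not tested. The alternatives included a filter of at least 5 CPM in 3 libraries. GstS4 met it only through newly emerged workers (6.45 to 8.15 CPM), being at or below 2.17 CPM in every other library. Its values under that filter are therefore no separate support. Upper-quartile factors shifted the all-gene median of log2 fold changes by 0.12 (nurses against newly emerged workers), 0.15 (foragers against newly emerged workers) and -0.10 (defenders against foragers).

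In foragers against nurses the 4 genes had 1 call, 0 with RLE factors, without a filter or in a fit of 2 groups, 2 with DESeq2, and 0 to 1 when a library was left out. The other 7 genes had 3 calls there, 1 with upper-quartile factors or the replicate block, 0 in a fit of 2 groups, and 0 to 2 when a library was left out. When a library was left out, the 4 genes had 2 to 4 calls in defenders against newly emerged workers and 0 to 1 in defenders against nurses, where the 7 had 0 to 2. With upper-quartile factors or DESeq2, 1 of the 7 was called in defenders against nurses, and with DESeq2, 1 in defenders against foragers.

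Over all genes, calls went from 452 to 888 (DESeq2) or 111 (2 groups only) in foragers against nurses, from 872 to 1844, 431 or 1466 (replicate block) in defenders against nurses, and from 0 to 1306, 876 or 667 in defenders against foragers. Leaving out a library gave 176 (nurse 2) to 532 (nurse 3) calls in foragers against nurses, 99 (defender 3) to 1428 (nurse 1) in defenders against nurses, and in defenders against foragers 491 without nurse 1, 1161 without nurse 3, 1 without forager 2 and 0 otherwise. The replicate block changed no call of the 4 genes. The labels do not say that a number marks a shared source, so the fit without the block was kept. Deviations from the group means correlated above 0.1 in 13 of 18 same-numbered pairs and in 6 of 36 other pairs. The lowest and highest values were -0.36 and 0.42 in same-numbered pairs and -0.35 and 0.36 in other pairs. Of 12 libraries, 9 correlated best with one of their own number. The deviations within a group sum to 0, so these pairs are not independent. Whether libraries share something by number was not tested. All comparisons rest on 3 libraries per group, and GstS4 on few counts.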

Other observations

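The genes next to the 4 were taken from the RefSeq gene list. LOC411046, beside GstS4, had log2 fold changes of -0.15 in defenders, -0.041 in foragers and -0.047 in nurses against newly emerged workers (edgeR adjusted p = 0.518, 0.848 and 0.84), and LOC552078 on the other side was too low to be tested. LOC552283, beside GstS1, was called higher in foragers against newly emerged workers (0.38, edgeR adjusted p = 0.0224) and in no other comparison, and LOC726755 on the other side averaged 0.225 CPM and passed in none of the 6. LOC410577, beside GstD1, rose in defenders (0.89), foragers (1.11) and nurses (1.25) against newly emerged workers (edgeR adjusted p = 3.64e-05 to 0.000332), where GstD1 was at -0.46, -0.28 and -0.31. LOC410033, beside Trxr-1, was called higher in foragers against newly emerged workers (0.30, edgeR adjusted p = 0.0409) and in no other comparison. Trxr-1 overlaps LOC724327 in that list; without known strand use their reads could be mixed, and LOC724327, with a mean of 28.2 CPM over the 12 libraries, passed in none of the 6 comparisons. The list gives 4 transcripts for GstD1, 3 for Trxr-1 and 2 each for GstS1 and GstS4. Which of them the gene counts cover is not stated. None of the 491 deposited splice events lies in any of the 4 genes or the 7 other redox genes. The rule by which the events were chosen is not given. Their absence here thus does not show that splicing of these genes was alike between groups.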
